A study of Oryza sativa with 6 samples.

Results

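Protein phosphatases 2C are the subject here, a family of enzymes that remove phosphate groups from serine and threonine residues of other proteins. Members were taken by name: every gene that carries PP2C plus a number of 2 digits as a whole name in the array's annotation or in the rice gene table. That gave 60 genes, of which 55 were read by 72 probe sets, out of 17905 genes and 57194 rice probe sets on the array. For counts, 1 probe set stood for each gene, chosen by its mean log2 signal over the 6 arrays, the highest of the gene. That mean chose probe sets only, and the difference between the groups played no part in membership, although the family was picked with earlier results of these data known. The genes OsPP2C41, OsPP2C49, OsPP2C50, OsPP2C65 and OsPP2C77 had no probe set with a single annotated gene and were not analysed here.

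The groups are 3 dst mutant shoot samples and 3 wild-type shoot samples of the japonica cultivar Zhonghua11, all from seedlings aged 25 days that were kept at 26 °C for 11 h of light and at 22 °C for 13 h of darkness. The rice gene DST encodes a zinc finger protein of the nucleus, and is known for its part in stomatal aperture through genes that handle hydrogen peroxide. The labels name no allele, no cultivar for the mutant, no rescued line and no stress treatment, so a difference belongs to this mutant line as a whole. The comparison asks how transcripts in mutant shoots differ from those in wild-type shoots.

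Plants hold many protein phosphatases 2C, far more than animals. Clade A of the family is the part best known for hormone signalling. Without abscisic acid, the drought hormone, these phosphatases keep SnRK2 protein kinases inactive. When the hormone binds its receptors of the PYL family, the receptors block the phosphatases, the kinases become active and phosphorylate bZIP factors and ion channels, and guard cells close the stomata. Genes of clade A phosphatases are themselves known to be induced by abscisic acid. Other clades are known from immune receptors, mitogen-activated kinases and growth control, and for many rice members no role is stated here.

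Each sample was read on its own Affymetrix array, so that precision is set by having 3 arrays a group. The median signal per array lay between 117.6 and 140.9, and the brightest signal was lower on replicate 3 of both groups than on the other 4 arrays. Green-tissue markers fitted the label: the summed signal of 4 such genes (CAB2R, LHCP, OsrbcS and RBCS-A) was 78913 to 97700 in dst and 75184 to 104996 in the wild type. Of 4 anther and pollen markers, C6 and C4 passed the filter, while TDR and CYP703A3 had means below it on low signals. The sum of the 4 was 205 to 269 in dst and 189 to 226 in the wild type. Of 3 root markers Lsi2 was below the filter, while NRT2.2 and Lsi1 passed it. Their sum was 1529 to 1859 in dst and 1432 to 1762 in the wild type. Most of it came from Lsi1, at 1397.6 to 1764 in dst and 1303.2 to 1513.9 in the wild type. Whether the shoot samples held root tissue was not tested. Of the green-tissue markers, RBCS-A was below the filter. None of these markers passed the test in limma, and none had an unadjusted p under 0.05. The log2 ratio of 3' to 5' signal of the brighter GAPDH control, a sign of RNA or labelling quality, was 1.01 to 1.36 in dst and 0.35 to 0.62 in the wild type. The same ratio of the rice actin control, of similar brightness at its 3' end, was 1.81 to 2.01 in dst and 1.83 to 2.05 in the wild type, so it overlapped. The part of the GAPDH ratio in the results below was not tested. In whole shoots, fewer cells of a type and less RNA per cell cannot be told apart.

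In dst shoots OsPP2C01 fell, no member of the family rose, and 52 did not pass. This count is over the 53 genes whose mean signal passed the filter (at least 70.5), at an adjusted p of 0.05 in limma with Benjamini-Hochberg adjustment over all 34316 tested probe sets. Over all genes past the filter 0.987% passed that threshold, 0.45% upward and 0.537% downward, so 1 of 53 is near the background. The median log2 change of the 55 genes was 0.06, against 0.02 over all genes on the array. Of the 55 genes, 32 (58.2%) had the higher mean in dst, as did 54.1% of all genes. An unadjusted p under 0.05 was reached by 9 of the 55, or 16.4%, of which 5 were higher and 4 lower in dst, against 12.1% of all genes. These shares are close to those of the array as a whole.

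**Figure D1:**
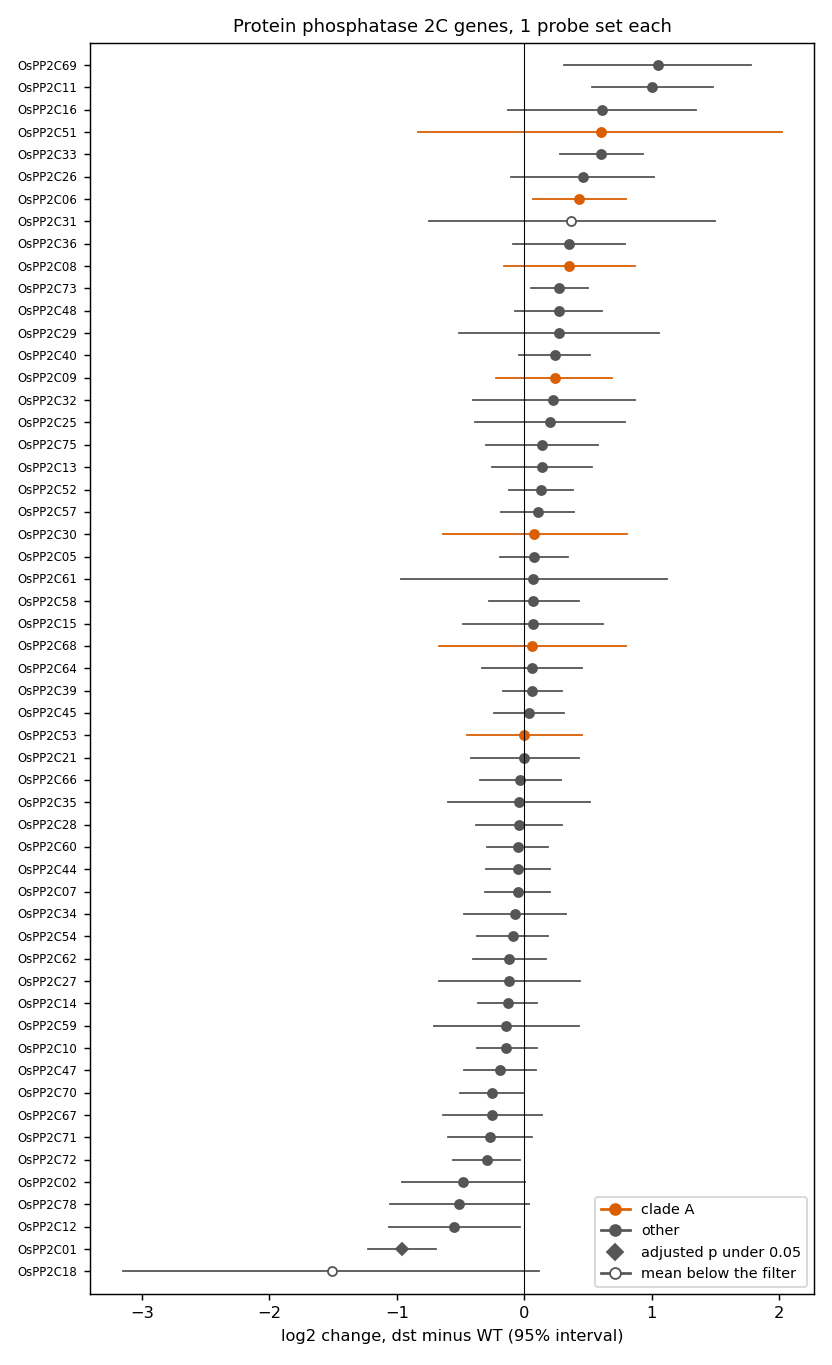
The log2 change (horizontal axis, dst minus WT) of each of the 55 genes (rows), with its 95% interval from limma. Clade A genes are orange, the diamond is the gene past an adjusted p of 0.05, and open circles are the 2 genes with a mean below the filter. OsPP2C01 is the diamond at -0.96, and 34 of the 55 genes lie within 0.25 of 0.

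The member that fell was OsPP2C01, LOC4324414 in the gene table, on chromosome 1. No role is stated for it here. Its signal was 1184.6, 1362.9 and 1341.3 on the dst arrays, against 2626.2, 2701.3 and 2256.7 on the wild-type arrays. The highest dst value thus lay well below the lowest wild-type value, and the replicates of each group lay close together. Its mean was 1296 ± 97.3 in dst and 2528 ± 238 in the wild type (SD, n = 3 each), and the wild-type level was 1.95-fold that of dst. The log2 change was -0.96 ± 0.12 (SE), with a 95% interval of -1.23 to -0.69 and an adjusted p of 0.00578 in limma.

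The fall of OsPP2C01 differed in size between sets of arrays, while its direction in any set was fixed by the lack of overlap. It measured -1.07 on the log2 scale between the first and second replicates of the groups and -0.75 between the third arrays. OsPP2C01 passed the threshold in 15 of 17 alternative fits, with log2 changes between -1.07 and -0.90. The call ended without wild-type replicate 2, at an adjusted p of 0.0526, and without the mean-variance trend, at 0.0927, both in limma. The gene has 1 probe set, so no second reading on the array bears on it.

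The genes around OsPP2C01 on chromosome 1 were also looked at. Of the 20 measured genes nearest to it, 10 on either side in the order of the gene table, none rose and LOC4327145 fell, by 0.71 on the log2 scale. That is 1 of 20, where 0.537% of all genes past the filter fell, and so small a count was not tested. The median log2 change of these 20 genes was -0.07. Of the 53 members past the filter, 7 had a changed neighbour within the same distance and 46 had none. OsPP2C11, OsPP2C33 and OsPP2C69 were among those with none. The 53 members had 7 changed neighbours in all, with 20 genes looked at around each. The share of all genes with a changed neighbour was not counted. The 0.987% of all genes past the filter that passed in either direction is a share of single genes. It is therefore not the background for 7 of 53 members.

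By size of p, OsPP2C01 was followed by OsPP2C11, OsPP2C33 and OsPP2C69, which had a higher signal on every dst array and did not pass the adjusted threshold. OsPP2C11 read 1123.8, 1122 and 738.1 in dst, against 615.8, 437 and 428.8 in the wild type. The third dst array was the lowest of its group but still above every wild-type array. The mean was 995 ± 222 in dst and 494 ± 106 in the wild type (SD, n = 3 each), a ratio of 2.01. The log2 change was 1.0 ± 0.21 (SE), the interval 0.53 to 1.48 and the adjusted p in limma 0.075.

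The call of OsPP2C11 depended on the settings. It passed in 5 of 17 alternative fits, with adjusted p values in limma between 0.0142 and 0.308. Among them were the fit without dst replicate 3, in which its log2 change was 1.21 with adjusted p = 0.0302, and the fit without wild-type replicate 1, at 0.0499. With the replicate number as a block its adjusted p was 0.0289, and with the third arrays as a block it was 0.0199.

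OsPP2C33 read 965.6, 935.6 and 775.5 in dst, against 615.4, 599.6 and 539.8 in the wild type. As for OsPP2C11, the third array was the lowest in each group, and the groups did not overlap. Its mean was 892 ± 102 in dst and 585 ± 39.9 in the wild type (SD, n = 3 each), a log2 change of 0.60 ± 0.14 (SE), for which limma gave an adjusted p of 0.116. It passed in 2 of 17 alternative fits, those with array weights and with the third arrays as a block.

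OsPP2C69 had the largest upward estimate of the family, and its wild-type values were dim and spread out. It read 208.8, 207.1 and 195.4 in dst, against 140.4, 95.9 and 70.8 in the wild type. The 3 dst values lay close together, and the spread was on the wild-type side. The log2 change was 1.05 ± 0.33 (SE), with an interval of 0.31 to 1.78 and an adjusted p of 0.262 in limma.

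**Figure D2:**
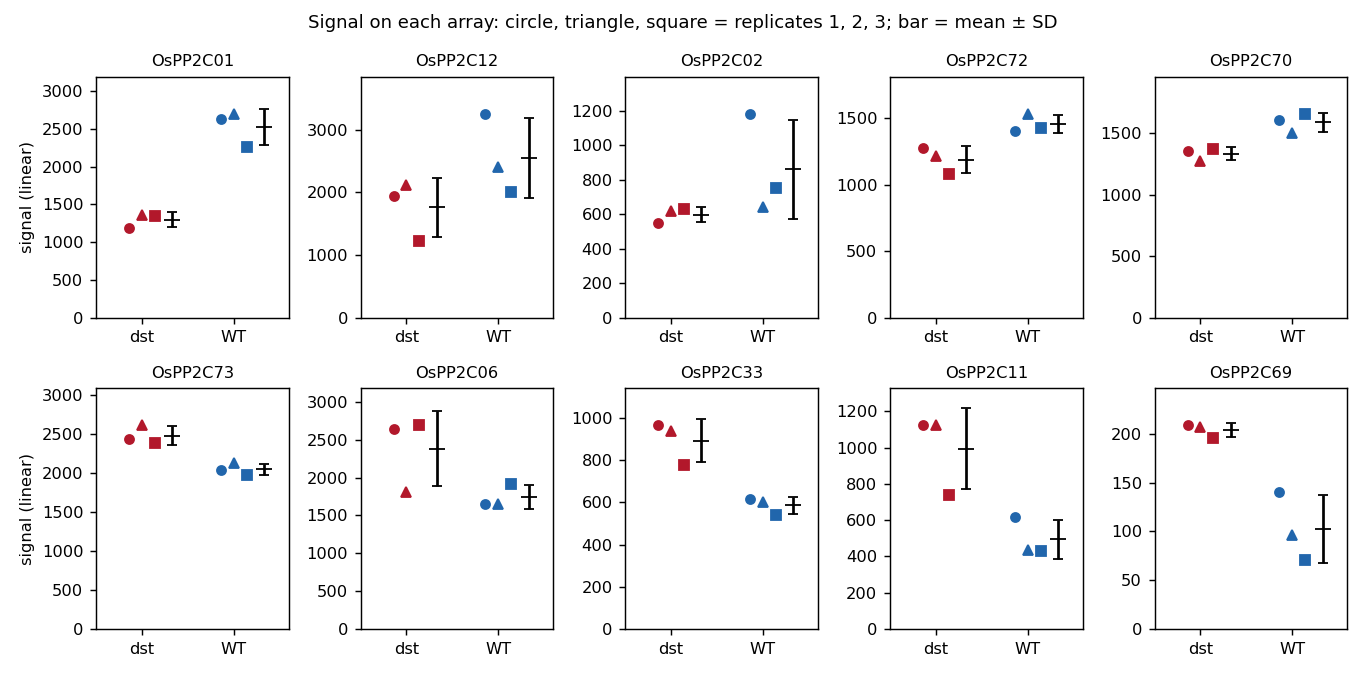
Signal on a linear scale (vertical axis, from 0) on each dst array and each WT array for the 10 members with the smallest unadjusted p, ordered by log2 change. Bars are the mean ± SD of 3 arrays. OsPP2C01 stands apart with all 3 dst values near 1296, while OsPP2C12 and OsPP2C06 overlap between the groups.

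The other genes among the 10 with the smallest p had log2 changes smaller in size than those of OsPP2C01, OsPP2C11, OsPP2C33 and OsPP2C69. In OsPP2C12 and OsPP2C06 the groups also overlapped. OsPP2C73 read 2435.8, 2616.5 and 2392 in dst, against 2046.7, 2126.3 and 1982.1 in the wild type, with no overlap. Its log2 change of 0.27 ± 0.10 (SE) was among the more precisely measured of the family. The adjusted p was 0.359 in limma.

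OsPP2C72 read 1277.3, 1215 and 1077.4 in dst, against 1406.8, 1534.3 and 1429.4 in the wild type. OsPP2C70 read 1356.1, 1270.8 and 1369.3 in dst, against 1603.8, 1503 and 1657.9 in the wild type. Both had all dst values below all wild-type values, and both differences were small, at -0.29 ± 0.12 and -0.25 ± 0.11 on the log2 scale (SE). Their adjusted p values in limma were 0.409 and 0.451.

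OsPP2C12 and OsPP2C02 leaned downward with more spread. OsPP2C12 read 1939.5, 2122.4 and 1221.2 in dst, against 3256.9, 2403 and 2001.2 in the wild type, so the groups overlapped. OsPP2C02 read 548.3, 617.1 and 629.5 in dst, against 1183.1, 643.1 and 753 in the wild type. Here the groups stood apart by a narrow margin, and wild-type replicate 1 was far above the other wild-type arrays. The log2 changes were -0.55 ± 0.23 for OsPP2C12 and -0.48 ± 0.21 for OsPP2C02 (SE), with adjusted p values in limma of 0.442 and 0.482. Single arrays carried much of both. OsPP2C02 measured -0.22 without wild-type replicate 1, and OsPP2C12 measured -0.30 without dst replicate 3 and -0.36 without wild-type replicate 1.

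Over the family, 12 of the 55 genes had groups that did not overlap, 6 with dst higher and 6 with dst lower. That is 21.8%, against 18.4% of all genes on the array, where dst was higher in 10.7% and lower in 7.68%. Beside those described, OsPP2C36 and OsPP2C40 were higher and OsPP2C10 and OsPP2C14 lower on every dst array, with log2 changes of 0.35, 0.24, -0.14 and -0.13. These 4 genes are named after their values were seen. No array stood apart over the family. Each array held the lowest value in 6 to 13 of the 55 genes and the highest in 8 to 12. Wild-type replicate 3 was lowest most often, and wild-type replicate 2 highest most often. The median deviation from the gene means lay between -0.02 and 0.05 on every array.

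The remaining 28 genes all overlapped between the groups, with log2 changes from -0.51 to 0.61, a median of 0.06 and standard errors from 0.10 to 0.46. Their adjusted p values in limma ran from 0.518 to 0.976, and 16 had the higher mean in dst. At the low end OsPP2C78 read 279.7, 182.5 and 208.6 in dst, against 250.5, 357.4 and 340.4 in the wild type. At the high end OsPP2C16 read 135.4, 162.8 and 185.5 in dst, against 92.9, 140.5 and 88.6 in the wild type. In each of these, named after their values were seen, 1 array of each group lay within the range of the other.

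**Figure D3:**
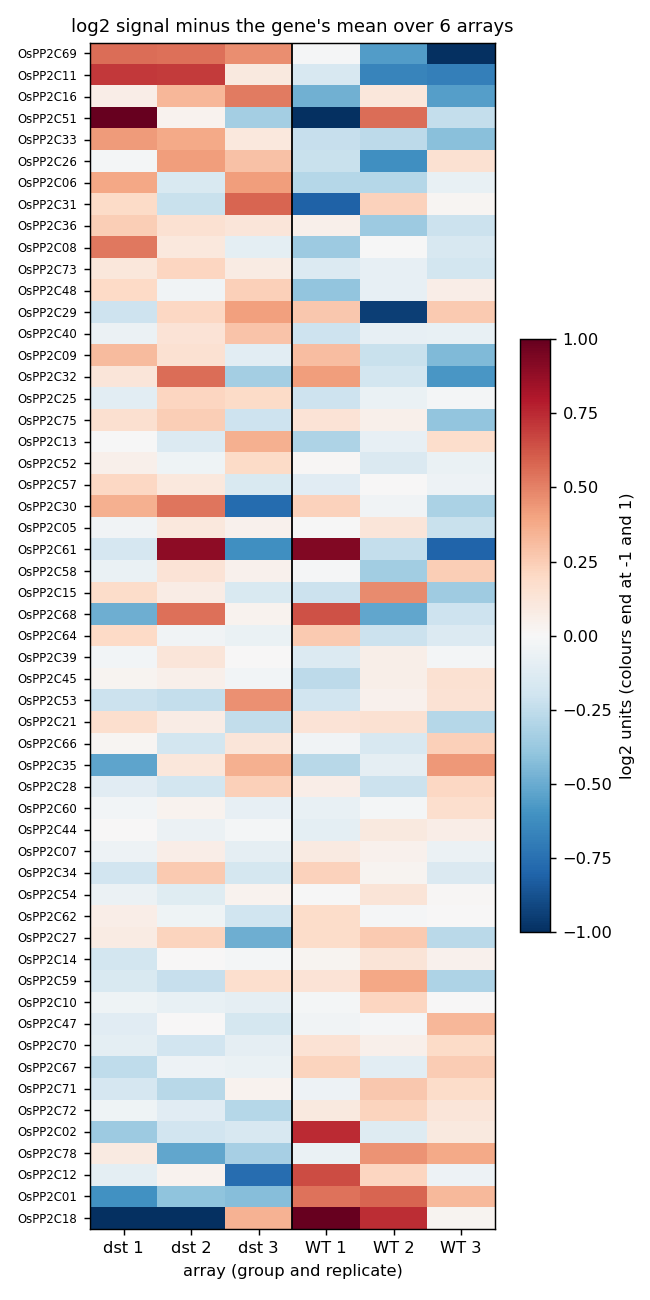
Log2 signal minus the gene's mean over 6 arrays (colour, ending at -1 and 1) for the 55 genes (rows, ordered by log2 change) on the dst and WT arrays (columns). OsPP2C01 is blue on all dst arrays and red on all WT arrays, and no column is of 1 colour throughout.

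Clade A, the phosphatases known from abscisic acid signalling, had 7 genes with a probe set, and all 7 passed the filter. None passed the threshold over all genes in limma, where OsPP2C06 alone had an unadjusted p under 0.05. That is 1 of 7, or 14.3%, against 12.1% of all genes. The clade is given here from general knowledge of the rice family, and 9 of its genes are named in the gene table. The median log2 change of the 7 measured genes was 0.24, against 0.02 over all genes. Each of the 7 had a mean in dst at or above that in the wild type, where 54.1% of all genes had the higher mean in dst. The upward lean was not shared by all arrays. The median deviation of the 7 genes was 0.36 on dst replicate 1, 0.10 on dst replicate 2 and -0.10 on dst replicate 3, against -0.19, -0.04 and -0.21 on the wild-type arrays. Without wild-type replicate 3 the median was 0.08, and without dst replicate 1 it was 0.14. With median centring 6 of the 7 had a higher mean in dst, and OsPP2C53 turned to -0.029. The count was 5 of 7 with replicates 1 and 2 only, without wild-type replicate 3 and without dst replicate 2.

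OsPP2C06, also named OsABIL1 for its likeness to the Arabidopsis phosphatase ABI1, was the most precisely measured of these. It read 2644.1, 1815.5 and 2693.3 in dst, against 1654.5, 1655 and 1920.8 in the wild type. The second dst array fell among the wild-type values, and the other dst arrays were above them. The log2 change was 0.43 ± 0.16 (SE), with an interval of 0.07 to 0.80 and an adjusted p of 0.372 in limma, which ranged from 0.148 to 0.742 over the alternatives.

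OsPP2C08 read 381.2, 284.5 and 247.5 in dst, against 205.7, 263.8 and 236.6 in the wild type, and its log2 change was 0.35 ± 0.23 (SE). OsPP2C09, known to act on root growth under drought, read 1029.8, 917.9 and 768.4 in dst, against 1022.4, 707.6 and 609.8 in the wild type, with a log2 change of 0.24 ± 0.20 (SE). In both genes the groups overlapped, and the adjusted p values in limma were 0.659 and 0.753. OsPP2C08 measured 0.18 without dst replicate 1. OsPP2C09 measured 0.14 without dst replicate 1. Leaving out wild-type replicate 3 gave it 0.080, and leaving out wild-type replicate 1 gave it 0.45.

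OsPP2C51, known to promote seed germination, was dim and uncertain. It read 165.2, 73.3 and 56.5 in dst, against 30.8, 105.8 and 60.9 in the wild type. The interval of its log2 change ran from -0.83 to 2.02, so neither direction could be told from no change at this precision. With single arrays left out its log2 change ran between 0.13, without wild-type replicate 1, and 1.02, without wild-type replicate 2.

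OsPP2C30, OsPP2C53 and OsPP2C68 had estimates near 0. OsPP2C30, a known partner of the receptor OsPYL/RCAR5 in rice, read 519.5, 589.7 and 238.1 in dst, against 476.2, 395.9 and 326.1 in the wild type. OsPP2C68, also named OsSIPP2C1 and known as a stress-induced phosphatase, read 409.7, 841.8 and 591.2 in dst, against 894.7, 400.7 and 499.2 in the wild type. In both, the arrays of a group lay further apart than the group means, and the intervals, -0.64 to 0.81 and -0.67 to 0.80, are wide.

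OsPP2C53, also named OsABIL2, read 722.4, 712.2 and 1154.6 in dst, against 733.7, 866.8 and 925.6 in the wild type. The third dst array was the highest of the 6. The interval of its log2 change was -0.45 to 0.45. Of the 7 clade A genes, 6 had intervals inside -1 to 1, and 1 had an interval inside -0.5 to 0.5.

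**Figure D4:**
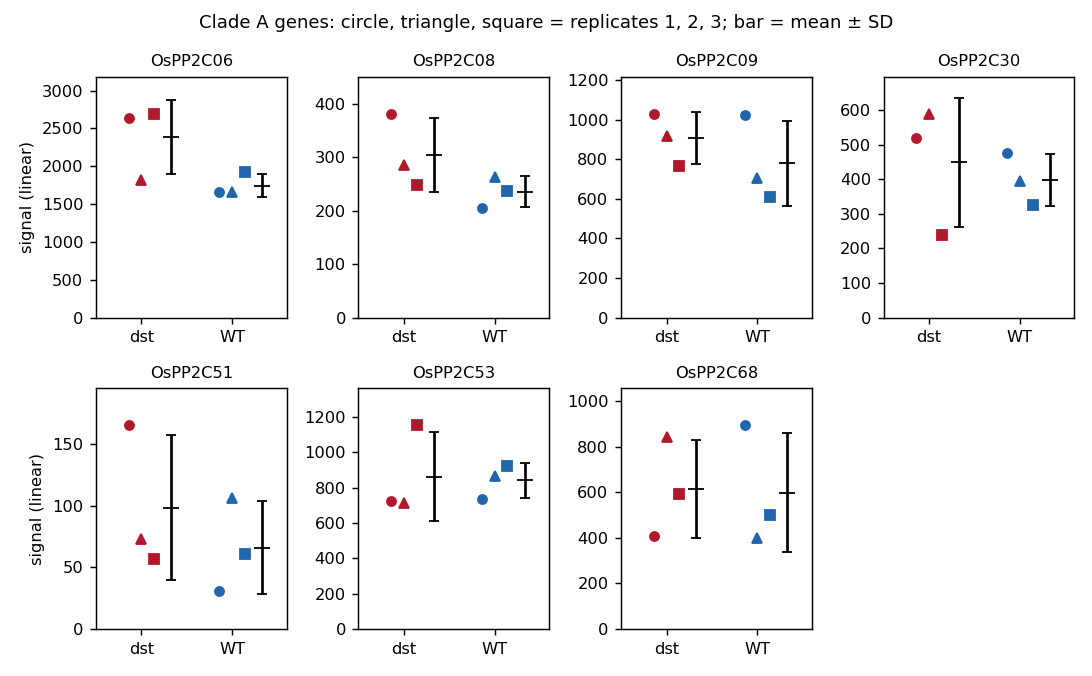
Signal on a linear scale (vertical axis, from 0) of the 7 clade A genes on each dst array and each WT array, with the mean ± SD of 3 arrays. The groups overlap in all 7 panels, and OsPP2C06 shows the clearest upward lean, with a mean of 2384 in dst and 1743 in WT.

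The partners of clade A in the signalling chain held few differences. The 1 measured receptor, OsPYL11, also named RCAR5, read 1691.6, 1987.2 and 1640.1 in dst, against 1976.1, 1700.1 and 1908.3 in the wild type. The groups overlapped, with a log2 change of -0.07 ± 0.12 (SE) and an interval of -0.35 to 0.20.

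None of 10 SnRK2 kinase genes, OsSAPK1 to OsSAPK10, passed over all genes in limma, where OsSAPK1 alone had an unadjusted p under 0.05. That is 1 of 10, against 12.1% of all genes. Their log2 changes ran from -0.27 to 0.13 with a median of -0.04, and 4 of the 10 had a higher mean in dst. OsSAPK1 read 1389.3, 1527.7 and 1479.8 in dst, against 1814.2, 1906.4 and 1596.8 in the wild type. All its dst values were below the wild-type values, but the log2 change of -0.27 ± 0.12 (SE) had an adjusted p of 0.447 in limma. The groups of OsSAPK6, named after its values were seen, did not overlap either, with dst lower and a log2 change of -0.18 ± 0.12 (SE). That makes 2 of the 10 without overlap, against 18.4% of all genes.

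None of 3 genes for transcription factors of the pathway passed over all genes in limma or had an unadjusted p under 0.05, and OsVP1 was below the filter. TRAB1, a bZIP factor that binds abscisic acid response elements, read 631.1, 769.1 and 740.7 in dst, against 537.8, 630.5 and 603.2 in the wild type. The dst values were all higher, the closest pair by less than 1 unit of signal, and the log2 change was 0.27 ± 0.15 (SE), for which limma gave an adjusted p of 0.576. ABF2, also named OsBZIP23, measured 0.00 ± 0.12.

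Among 8 dehydrin and late embryogenesis abundant genes that are known to be induced by abscisic acid, rab25 rose, none fell and 7 did not pass, where 0.45% of all genes past the filter rose. The dehydrin gene rab25 read 1036.2, 1261.3 and 930.5 in dst, against 291.7, 427.2 and 475.2 in the wild type, a log2 change of 1.45 ± 0.21 (SE). All dst values were above the wild-type values, and limma gave an adjusted p of 0.0122. Its call ended in 4 of 17 alternative fits, without wild-type replicate 2 at an adjusted p of 0.0569, without dst replicate 1 at 0.0632, without dst replicate 2 at 0.0594 and without the variance trend at 0.109, all in limma. The other 7 measured between -0.03 for Dhn1 and 0.58 for RAB16D, and the median of the 8 was 0.12. The lists of partners were chosen with earlier results of these data known.

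**Figure D5:**
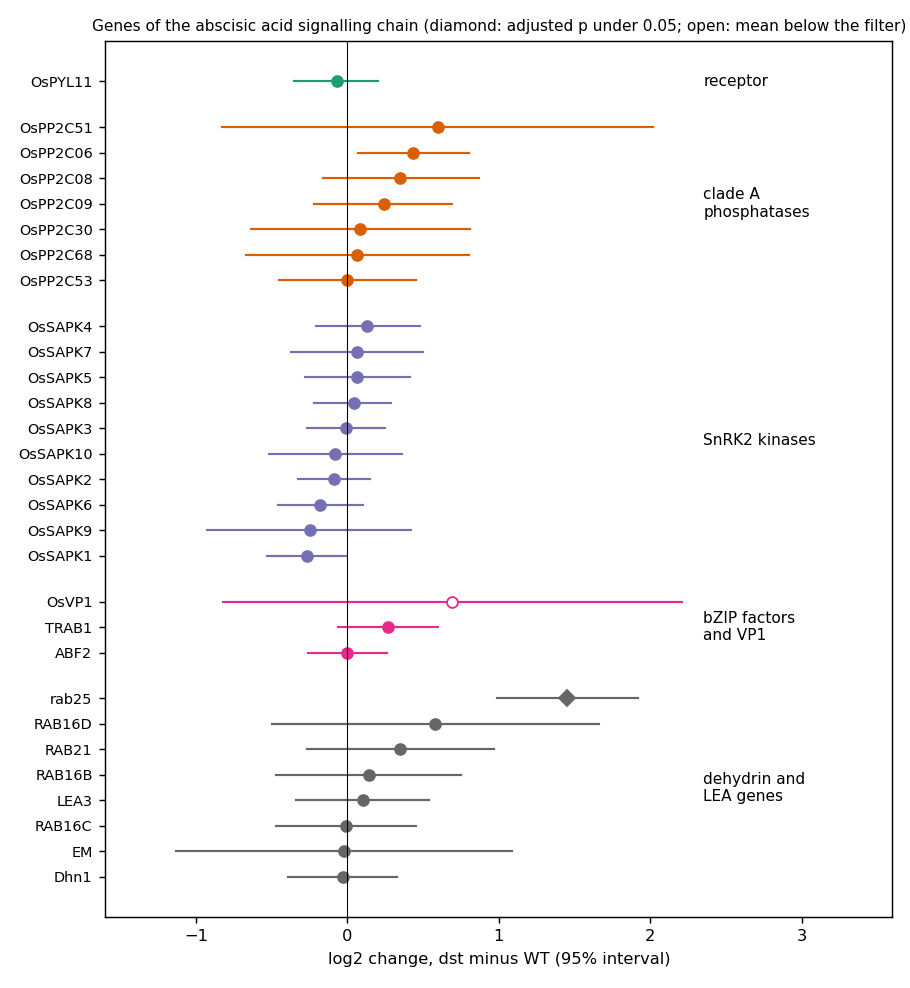
Log2 change with its 95% interval (horizontal axis, dst minus WT) for the receptor, the clade A phosphatases, the SnRK2 kinases, the transcription factors and the dehydrin and LEA genes (rows, by role). The diamond marks rab25, at 1.45, the single gene here past an adjusted p of 0.05, and the open circle marks OsVP1, with a mean below the filter.

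Members known from other processes are given by name here after their values were seen. OsPP2C35, also named XB15, a phosphatase that acts on the rice immune receptor XA21, read 542.2, 845.4 and 1001.7 in dst, against 647.5, 733.9 and 1054.9 in the wild type. In both groups the third array was the highest, and the log2 change was -0.04 ± 0.25 (SE). OsPP2C34, also named OsBIPP2C2 after its induction by a chemical activator of defence, measured -0.07 ± 0.18, and OsPP2C13, also named DCW11 and known from pollen of cytoplasmic male sterile rice, measured 0.14 ± 0.17. All 3 overlapped between the groups, with adjusted p values in limma of 0.974, 0.936 and 0.843.

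Of the 53 genes past the filter, 43 had a 95% interval inside -1 to 1 on the log2 scale and 20 had one inside -0.5 to 0.5. For these genes a change of 2-fold, or of 0.5 on the log2 scale, lies outside the interval. The intervals are for single genes and are not adjusted for the number of genes. OsPP2C21 was closest to 0: it read 524.3, 492.3 and 394 in dst, against 512.2, 517 and 382 in the wild type, with an interval of -0.42 to 0.43. Its only probe set is marked by the array maker's suffix as open to cross-hybridization. The standard error of the log2 change ranged from 0.10 to 0.63 over the 53 genes, with a median of 0.17, and the ratio of highest to lowest of the 6 signals ranged from 1.13 to 5.36.

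The 2 genes below the filter were OsPP2C18 and OsPP2C31. OsPP2C18 read 10.7, 11 and 34.3 in dst, against 76.4, 45 and 27.4 in the wild type, so that the third arrays went the opposite way from the others. OsPP2C31 read 8.8, 6.6 and 11.5 in dst, against 4.4, 9 and 7.8 in the wild type. No detection calls were used, and no fold is given at such signals.

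Several probe sets read 12 of the 55 genes, and none of these genes had probe sets whose 95% intervals lay apart. The probe sets shared a sign in 6 genes and differed in sign in the other 6, where the probe sets past the filter measured between -0.13 and 0.25. Probe sets below the filter are not in that range. Those of OsPP2C45, OsPP2C48 and OsPP2C62, named after their values were seen, had log2 changes well above those of the brighter probe sets. That of OsPP2C48 read 32.9, 16.3 and 13.7 in dst, against 7.5, 7 and 10.6 in the wild type, with no overlap. The 4 probe sets of OsPP2C73 all leaned upward, from 0.11 to 0.28 on the log2 scale, but the groups overlapped in all except the brightest. The probe set at 0.24 measured -0.01 between the first and second replicates of the groups and 0.75 between the third arrays. The pair of OsPP2C71 both leaned downward. Its brighter probe set read 693.5, 641.8 and 798.4 in dst, against 751.1, 939.5 and 881.3 in the wild type, a log2 change of -0.27 ± 0.15 (SE). The dimmer one, which the array maker's suffix marks as open to cross-hybridization, read 327.9, 517.2 and 817.3 in dst, against 810.7, 730.5 and 1133.9 in the wild type, a log2 change of -0.76 ± 0.30 (SE). The groups overlapped in both, and limma gave adjusted p values of 0.587 and 0.41.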

How the data were processed

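The authors deposited linear intensities, 1 for each probe set of an array. Per the labels' protocols, Trizol was used for extraction and biotin for labelling. Software and scaling were not given in the sources used here, but every array had a mean of 500.1 once 2% of values was trimmed at either end, so a scaling to a common level is likely. Values under 1 were set to 1, log2 was taken, 187 control probe sets were left out, and 34316 probe sets were kept whose mean log2 reached the 40th percentile, equal to a signal of 70.5. The fit of dst against wild type used lmFit and then eBayes with a trend and no covariates (limma 3.58.1, R 4.3.3), with Benjamini-Hochberg adjustment over all tested probe sets. Members below the filter, and counts over all 55 genes of an unadjusted p, come from the same fit to all 57194 rice probe sets.

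Names came from the platform annotation, which gives 1 gene for 22436 probe sets (39.2%), and from an NCBI RefSeq gene table, which holds all of these genes and was used for names and gene order only. Members and lists were chosen with earlier results of these data known. Genes named are those past the threshold, the 10 smallest p, clade A, genes whose several probe sets include an unadjusted p under 0.05 and the gene closest to 0, and, in the partner lists, calls and the smallest p. No protein or promoter sequences were used. On simulated data with the real means and model spreads of the 34316 probe sets, 41 of 100 changes of 1 and 82 of 100 changes of 2 on the log2 scale were recovered, with 13 false among 136 calls. The simulated arrays were independent and held no effect shared by the third arrays, so these figures need not hold for the real arrays. Replicate numbers were not taken as pairs, since deviations from the group means correlated at 0.05, 0.05 and 0.20 for numbers 1, 2 and 3. The third arrays of the groups went together, at 0.20, and a block for them was an alternative. Replicate 3 of one group had -0.10 or -0.11 with replicate 1 or 2 of the other. These negative values follow from the 0.20, since deviations cancel out within a group. Plots were drawn with matplotlib 3.10.9.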

Additional observations from a re-analysis of the deposited data

How the results depend on the processing

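The choices varied were scaling (quantile or median centring), signal filter, offset (16), variance trend, array weights, blocks, threshold, probe sets per gene and the arrays entering. The number of members past the threshold was 1, OsPP2C01, and became 0 without the variance trend, 2 with the replicate block, 3 with array weights, 3 when the third arrays formed a block and 2 at an adjusted p under 0.1. Leaving out single arrays gave 0 to 2. The added members were OsPP2C11 and, in the counts of 3, OsPP2C33. Of all probe sets 317 passed, with 80 without the variance trend, 532 with array weights, 606 when the third arrays formed a block, 122 at an adjusted p under 0.01, 536 at 0.1 and 118 to 280 with 1 array left out. Of the partners 1 passed, and 0 did so without the variance trend or at an adjusted p under 0.01, with 0 to 1 when 1 array was left out. The median change of the family was 0.06, and 0.02 with array weights, 0.02 with replicates 1 and 2 only, 0.03 after median centring and 0.01 to 0.07 with 1 array left out; for clade A it was 0.24, and 0.08 to 0.35 with 1 array left out. A looser or stricter threshold moves counts by construction, and otherwise the cause was not tested. Of 417 comparisons of 22 named genes with alternatives, 383 kept direction and side of the threshold, 8 gained a call, 7 lost one and 19 turned in sign, all 19 among genes near 0. OsPP2C21 measured -0.030 after median centring, -0.019 with quantile normalization and -0.018 with replicates 1 and 2 only, and -0.14 to 0.12 with 1 array left out. OsPP2C53 measured -0.12 with array weights, -0.15 with replicates 1 and 2 only and -0.029 after median centring, and -0.22 to 0.12 with 1 array left out. OsPP2C68 measured -0.028 with replicates 1 and 2 only and -0.20 to 0.40 with 1 array left out, and OsPP2C30 -0.17 to 0.49. OsPYL11 measured 0.00042 with replicates 1 and 2 only. No detection calls were used, so dim probe sets carry little weight.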
